A study of Mus musculus with 6 samples.

Results

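The Magea genes encode type I MAGE proteins, a family of X-linked cancer-testis antigens, and 6 of them are described here in the ageing mouse kidney: Magea1, Magea2, Magea3, Magea5, Magea6 and Magea8. The family was chosen because Magea1 and Magea3 were known to be brighter in aged than in young kidney in these data, so the values below describe that difference and do not test it. Members were found as non-control probes whose transcript accession belongs to a member gene in RefSeq. The rule found 6 of the 55681 probes of the array, for 5 of the 6 genes. Magea1 has a pair of probes, Magea3, Magea5, Magea6 and Magea8 have 1 each, and Magea2 has 0, so no level of Magea2 is given.

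RNA of whole kidney was compared between male mice of the inbred strain C57BL/6 aged 20 months (aged, n = 3) and aged 2 months (young, n = 3), with no treatment or genetic change named for either age. A single-colour Agilent array was run per sample, and signals are in Feature Extraction's processed intensity units. The series describes 3 independent RNA preparations for each age without stating that different mice were used. The p-values therefore reflect variation among 3 arrays of an age, which could be technical. In whole-tissue RNA, more cells of a type and more RNA per cell cannot be told apart.

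MAGE-A genes are normally transcribed in male germ cells, and in other adult tissues their promoters are methylated and silent. Tumours that lose this methylation can switch them on, which is why the human proteins were first found as tumour antigens. MAGE proteins share a domain that binds RING-type ubiquitin ligases, and in human cells MAGEA3 and MAGEA6 bind the ligase TRIM28.

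All 6 arrays lay on 1 slide, with the aged samples in row 2 and the young samples in row 1, so an effect of the row cannot be told apart from one of age. Same-numbered aged and young samples shared a slide column. The share of probes well above background, as called by Feature Extraction, was 62.8%, 55.7% and 46.3% on aged arrays 1, 2 and 3, against 72.9%, 69.0% and 55.3% on young arrays 1, 2 and 3. The lowest signal that counted as well above background was 72.6, 93.4 and 155 units on the aged arrays, against 32.6, 36.1 and 69.2 units on the young arrays, so a dim probe was harder to detect in aged samples. To compare arrays, the log2 signal was taken relative to each array's 75th percentile. On that scale the 13705 probes that were above background on 0 of 6 arrays had a median change of 1.15, aged minus young, and 97.7% of them had a change above 0, whereas the 30821 probes bright enough to test had a median change of -0.05. All 11 kidney markers, among them Umod and Lrp2, were well above background on all 6 arrays. Of these, 0 passed limma's adjusted p of 0.05 in either direction and 1 had an unadjusted p under 0.05. Over all 14545 tested genes the shares were 3.56% and 17.1%, so little can be read from so short a list.

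On the X chromosome the members lie in the order Magea6, Magea3, Magea8, Magea2, Magea5 and Magea1 in the RefSeq annotation of build GRCm38.p6, on the minus strand, with a pseudogene and small nuclear RNA genes among them. The 250 bases before the annotated start of 4 of them are given here, because those of the 2 members that were brighter in aged kidney are alike and those of the 2 other members shown differ from them. They come from RefSeq on build GRCm38.p6, are read 5′ to 3′ on the minus strand, and have each CG dinucleotide, the site of DNA methylation, in capitals. The windows are chrX:155089791-155090040 for Magea1, chrX:154949570-154949819 for Magea3, chrX:154926116-154926365 for Magea6 and chrX:154995851-154996100 for Magea8.
Magea1: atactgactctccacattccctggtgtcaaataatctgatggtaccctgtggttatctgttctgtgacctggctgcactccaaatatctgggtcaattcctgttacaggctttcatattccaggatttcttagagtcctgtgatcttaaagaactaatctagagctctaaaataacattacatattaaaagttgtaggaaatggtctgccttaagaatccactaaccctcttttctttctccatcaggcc
Magea3: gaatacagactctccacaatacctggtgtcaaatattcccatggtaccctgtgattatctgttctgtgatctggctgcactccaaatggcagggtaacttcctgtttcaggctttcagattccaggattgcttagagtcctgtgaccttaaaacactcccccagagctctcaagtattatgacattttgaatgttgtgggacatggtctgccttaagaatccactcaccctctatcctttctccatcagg
Magea6: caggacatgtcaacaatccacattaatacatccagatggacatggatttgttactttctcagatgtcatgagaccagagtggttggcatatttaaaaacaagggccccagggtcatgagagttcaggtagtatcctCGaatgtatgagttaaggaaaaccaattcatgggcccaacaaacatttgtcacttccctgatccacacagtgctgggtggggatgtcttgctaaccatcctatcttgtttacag
Magea8: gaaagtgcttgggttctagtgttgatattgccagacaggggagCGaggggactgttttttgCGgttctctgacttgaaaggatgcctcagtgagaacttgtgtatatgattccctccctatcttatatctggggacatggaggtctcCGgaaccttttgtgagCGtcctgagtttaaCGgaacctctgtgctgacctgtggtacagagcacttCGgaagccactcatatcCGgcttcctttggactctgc
The Magea1 and Magea3 windows aligned over 248 columns with 85.5% identical bases. The Magea2 and Magea8 windows aligned over 235 columns with 91.9% identity, and the Magea5 window shared shorter and weaker matches with both, at 69.3% over 189 columns for Magea2 and 69.2% over 146 columns for Magea8. The Magea6 window matched no other member over more than 20 columns. CG dinucleotides numbered 0 in the windows of Magea1, Magea3 and Magea5, 1 in that of Magea6, 7 in that of Magea8 and 8 in that of Magea2, where the median over 32851 RefSeq windows of the same length was 6 and 7.87% of windows held 0. The motif CGGAAG, the core site of ETS factors, was searched on both strands and contains a CG itself. It was found in the windows of Magea2 and Magea8 and of no other member, and 13.6% of all windows hold it. In the windows of Magea1, Magea3 and Magea6 the last CAG ended within 3 bases of the annotated start, as it did in 9.61% of all windows. CAG is also a common end of introns, and whether these annotated starts are the true 5′ ends of the transcripts was not tested.

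Magea1 was brighter in aged kidney by both of its probes. Its first probe, A_55_P2003297, gave 2668, 842 and 1202 units in aged samples 1, 2 and 3, against 40.7, 54.5 and 17.3 units in young samples 1, 2 and 3. Every aged signal was well above background, and so were young samples 1 and 2, while young sample 3 lay at the level of undetected probes. The groups did not overlap, and the lowest aged signal was many times the highest young one. On the normalised log2 scale the mean was -1.26 ± 0.81 in aged and -6.63 ± 0.58 in young samples (SD, n = 3 each), a difference of 5.37 with a standard error of 0.57 from the spread of the arrays. That value counts the undetected signal of young sample 3, and without this array it was 5.07. Within slide columns 1, 2 and 3 the aged minus young difference was 5.99, 3.90 and 6.22.

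The second Magea1 probe, A_55_P2043227, gave 1338, 487 and 466 units in aged samples, against 18, 10.1 and 16.9 units in young samples. Here 3 of 3 aged and 0 of 3 young signals were well above background. Set against the lowest signal well above background on each young array, the aged mean was 15.5-fold higher. This bound holds for the processed signal only, since normexp background correction gave a smaller log2 change of 3.13. The normalised difference was 5.54 ± 0.53 (standard error), but with no young array detected it depends on the floor of the young arrays. It was 6.17, 5.54 and 4.89 within slide columns 1, 2 and 3, so each column pointed the same way for both probes.

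Magea3 was the other member that was brighter in aged kidney. Its probe, A_55_P1987485, gave 1818, 568 and 636 units in aged samples, against 80.1, 86.7 and 46.3 units in young samples. It was well above background in 3 of 3 aged and 2 of 3 young samples, and the groups did not overlap. The normalised mean was -1.94 ± 0.78 in aged and -5.61 ± 0.20 in young samples (SD, n = 3 each), a difference of 3.67 with a standard error of 0.47. Without young sample 3, which was not detected, it was 3.57. Within slide columns 1, 2 and 3 the difference was 4.46, 2.66 and 3.88.

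The 3 brighter probes ordered the aged samples in the same way on the normalised scale, sample 1 highest, then sample 3, then sample 2. For Magea1 the values were -0.62, -2.17 and -1.01 in aged samples 1, 2 and 3 by the first probe and -1.61, -2.96 and -2.37 by the second. For Magea3 they were -1.17, -2.73 and -1.92. The spread among aged samples therefore ran in parallel for both genes, over 3 samples only. This order is not particular to them. The kidney marker Kap, picked after its values were seen, had 3.51, 2.08 and 2.69 in aged samples 1, 2 and 3. The X-linked genes Rhox6 and Rhox9 had the same order, whereas other genes had other orders. The 2 genes are related in sequence and no probe sequence was used here, so how far each probe also binds transcripts of the other was not tested.

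**Figure D1:**
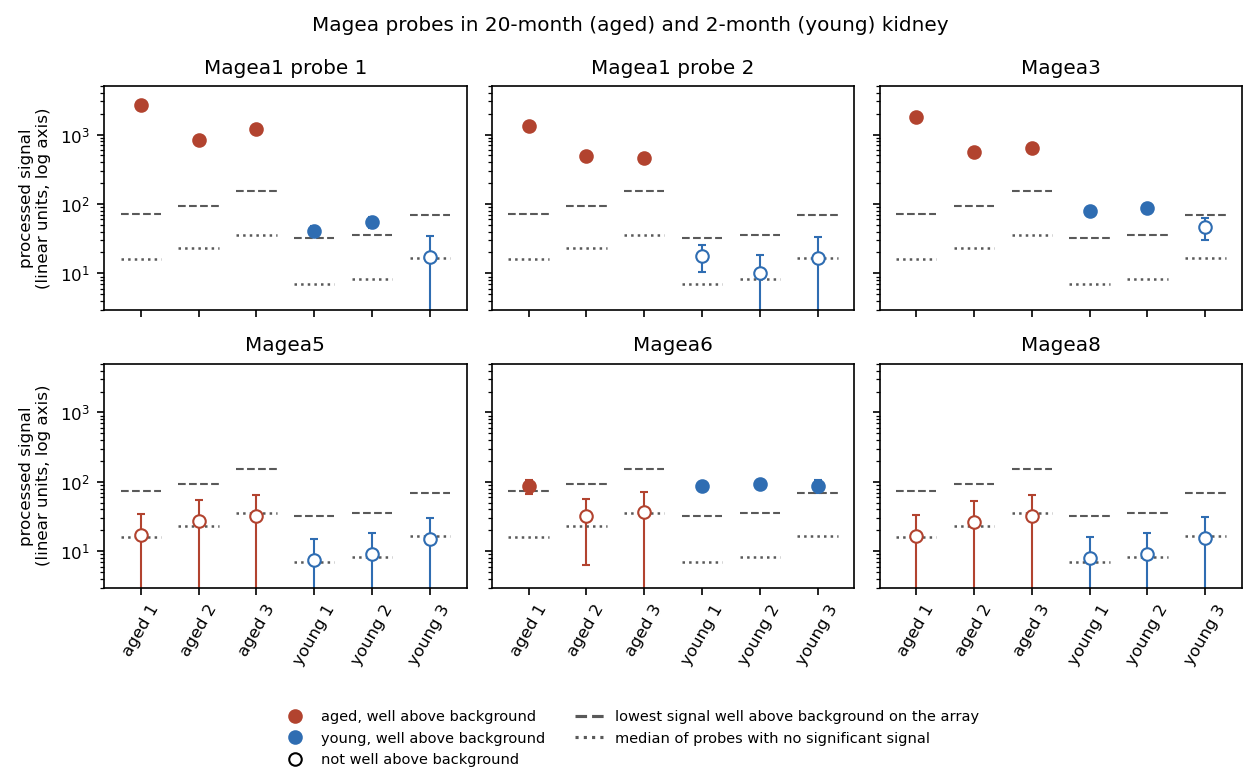
Processed signal (linear units on a log axis) of the 6 Magea probes on each array, with aged samples in red on the left and young samples in blue on the right of each panel. Points are single arrays and bars are Feature Extraction's signal error, cut off where they reach the foot of the axis, open points are not well above background, the dashed line is the lowest signal well above background on that array and the dotted line is the median of probes with no significant signal. All 3 aged points of Magea1 and Magea3 lie far above every young point, whereas Magea5 and Magea8 lie along the dotted line on all 6 arrays.

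Magea6 did not share the pattern. Its probe, A_55_P1974725, gave 85.7, 32.0 and 36.2 units in aged samples, against 86.2, 93.8 and 87.5 units in young samples. It was well above background in 1 of 3 aged and 3 of 3 young samples, and the dimmest young signal barely exceeded the brightest aged one. The normalised mean was -6.17 ± 0.66 in aged and -5.23 ± 0.32 in young samples (SD, n = 3 each), a difference of -0.94 with a standard error of 0.42. Within slide columns 1, 2 and 3 the difference was -0.06, -1.60 and -1.17. In aged samples 2 and 3 the probe lay 0.49 and 0.01 above the median of undetected probes on the log2 scale, so its aged level there is set by the floor of the array.

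Magea5 and Magea8 were not detected at either age. Magea5, by probe A_66_P100794, gave 17.0, 27.3 and 32.1 units in aged samples, against 7.59, 9.0 and 15.1 units in young samples. Magea8, by probe A_55_P2058786, gave 16.8, 26.7 and 31.9 units in aged samples, against 7.97, 9.09 and 15.6 units in young samples. Both probes were well above background on 0 of 6 arrays, and the signal error was about as large as the signal, for example 17.1 units for Magea5 in aged sample 1.

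The normalised difference was 1.29 for Magea5 and 1.22 for Magea8, close to the median of 1.15 over all undetected probes, of which the middle 90% ran between 0.16 and 1.58. No fold is given for either gene, since neither age was above background. Before Feature Extraction's own floor was applied, the background-subtracted signal of Magea5 was 10.9, -15.1 and -28.8 units in aged samples, against -1.73, -8.33 and -22.1 units in young samples. That of Magea8 was 15.1, -10.6 and -18.0 units in aged samples, against -9.10, -6.22 and -0.42 units in young samples. These values straddle 0 in aged samples and are all negative in young samples, and the aged and young ranges overlap for both genes.

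Of the 6 member probes, 4 passed the filter on dim probes, those of Magea1, Magea3 and Magea6, and the probes of Magea5 and Magea8 were not tested. In the limma fit across all 30821 tested probes, with Benjamini-Hochberg adjustment, 1.49% of probes were higher in aged kidney at an adjusted p under 0.05, and in 8.25% of probes all aged arrays lay above all young ones. The 3 probes of Magea1 and Magea3 met both conditions. Because the family was chosen from this contrast, nothing is read from that count.

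The size of the difference depended on how the signals were processed. The normexp setting also added an offset of 50 units before the log2, which shrinks differences where signals are dim. How much of its smaller values came from this offset was not tested. With normexp correction of the median spot signal in place of the processed signal, it was 3.68 and 3.13 for the Magea1 probes and 2.56 for Magea3, and -0.28 for Magea6. Quantile normalisation gave 5.52 and 5.23 for the Magea1 probes and 3.74 for Magea3, and 0.39 for Magea5 and 0.26 for Magea8. Leaving out any 1 array kept the difference between 5.05 and 5.82 for the first Magea1 probe, between 5.19 and 5.86 for the second, and between 3.28 and 4.06 for Magea3.

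**Figure D2:**
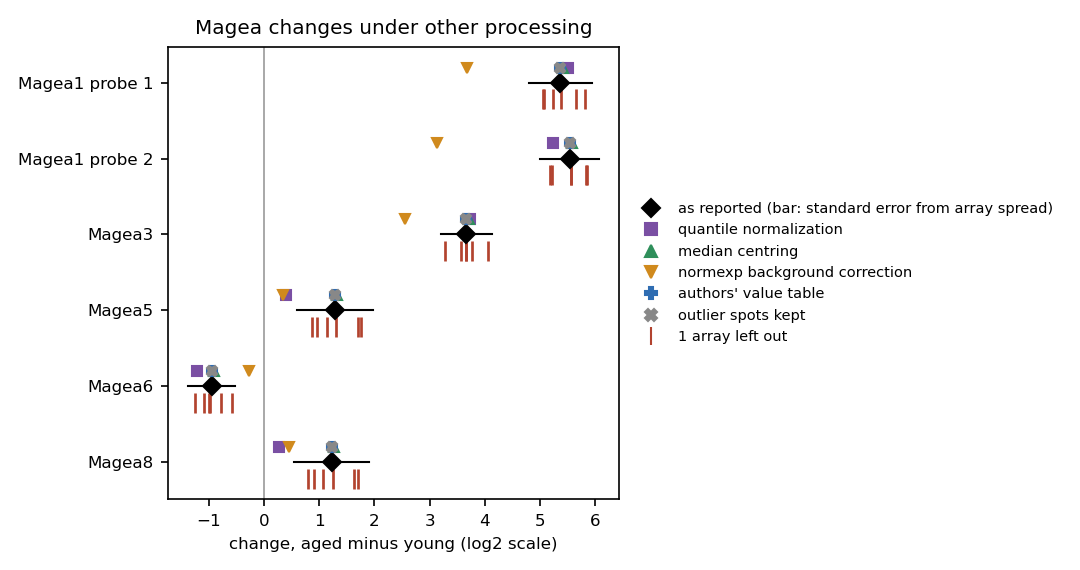
Change of each Magea probe, aged minus young on the log2 scale, as reported (black diamonds, with the standard error from the spread of the arrays), under 5 other ways of processing the signals (coloured symbols) and with 1 array left out in turn (red ticks). Magea1 and Magea3 stay above 2.5 in every setting shown, normexp correction gives their smallest values, and Magea5 and Magea8 fall below 0.5 under quantile normalisation or normexp correction.

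The rest of the MAGE family was then examined. The other MAGE-A genes with a probe are Magea4 and Magea10, and both were above background on 0 of 6 arrays. Of 14 MAGE-B genes, a related X-linked group of type I genes, 7 have a probe and 0 were bright enough to test. Mageb1 gave 169, 48.7 and 34.6 units in aged samples, against 74.0, 61.2 and 17.9 units in young samples. It was above background on 1 aged and 2 young arrays, and the ages overlap. Mageb16 was above background on 0 aged arrays and 1 young array, with 37.8 units there. These values are from the brighter probe of each gene, and a second probe of each was above background on 0 of 6 arrays. Both are named because they were detected, after their values were seen, and the other 5 MAGE-B genes with a probe were above background on 0 of 6 arrays.

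Type II MAGE genes are expressed in many tissues and are not cancer-testis genes. Of the 6 tested (Maged1, Maged2, Magee1, Mageh1, Ndn and Nsmce3), 0 passed the threshold in limma in either direction and 0 had an unadjusted p under 0.05. Their changes lay between -0.08 and 0.13, with a median of 0.05, beside -0.01 over all tested genes. In the same fit over 14545 genes, 3.56% of genes were called in either direction, 2.06% higher and 1.5% lower in aged kidney. Magee1, the member of this group with the smallest p, had a change of 0.13 ± 0.11 (SE; limma adjusted p = 0.632).

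**Figure D3:**
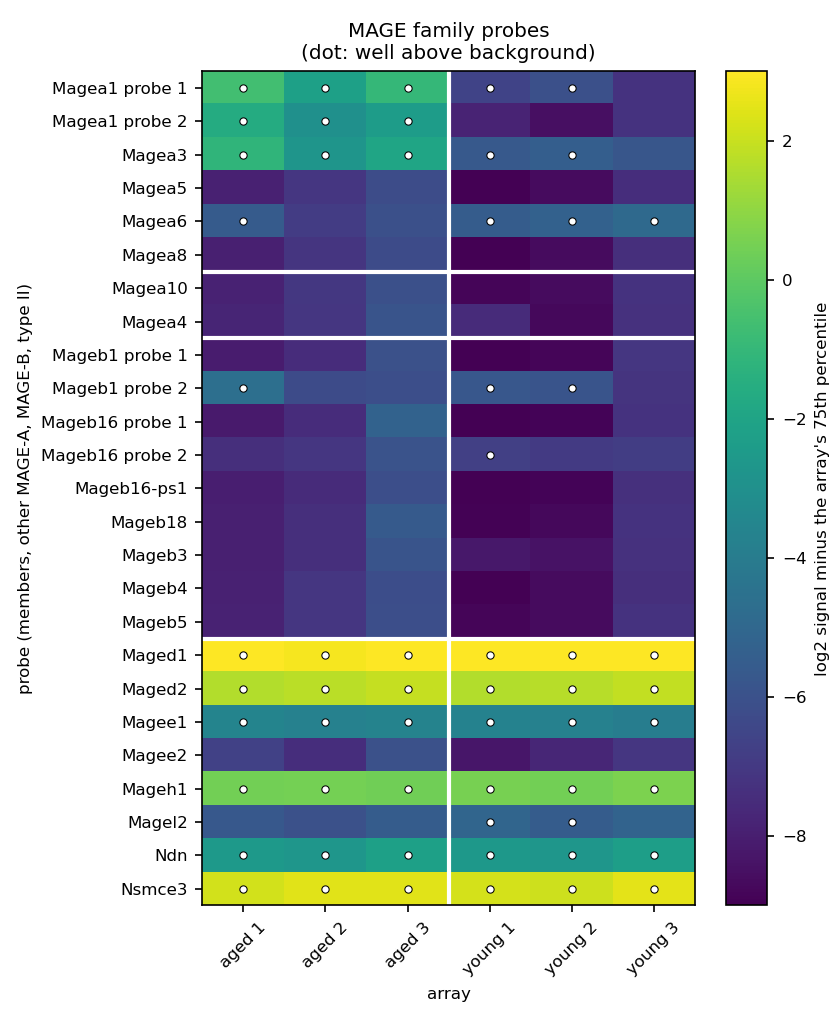
Normalised log2 signal of every MAGE family probe (rows, with the 6 Magea member probes on top, then other MAGE-A, MAGE-B and type II genes) on each array (columns, aged on the left), with a dot where the probe was well above background. Among the MAGE-A and MAGE-B rows only Magea1 and Magea3 carry a dot on all 3 aged arrays, while 6 type II genes carry a dot on all 6 arrays.

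Genes whose products bind MAGE proteins or take part in their known activities did not pass the test. All 10 listed, among them the ligase gene Trim28, the AMP-activated kinase gene Prkaa1 and Trp53, were tested. In limma 0 were called and 0 had an unadjusted p under 0.05, beside 3.56% and 17.1% of all tested genes. The median change was 0.07. Trim28 had a change of 0.18 ± 0.11 (SE; limma adjusted p = 0.473).

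Among other X-linked germline and cancer-testis genes few were bright enough to test. Of 76 listed genes of the Xlr, Ssx, Rhox, Fthl17 and similar families, 57 have a probe, 22 were above background on 0 of 6 arrays and 17 were tested, with a median change of 0.17. Of the 17, 13 were above background on all 6 arrays. Cypt12, Rhox3f, Ssxb10 and Xlr5b were so on 2 aged and 3 young arrays. They entered the test only through the young arrays, so their changes depend on the floor of the aged arrays. Of all tested genes 3.56% were called in either direction. The only one called in this list was Rhox6, a homeobox gene of the reproductive cluster on the X chromosome. It gave 1271, 638 and 721 units in aged samples, against 442, 358 and 244 units in young samples. All 3 aged signals exceeded all 3 young ones, and the change was 1.31 ± 0.23 (SE; limma adjusted p = 0.0244), or 2.47-fold.

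The Rhox6 call was lost when 1 array was left out in 4 of 6 cases, with an adjusted p in limma of 0.0883 without aged sample 3 and of 0.0569, 0.0766 and 0.0722 without young samples 1, 2 and 3. Rhox9, from the same cluster, gave 3142, 1148 and 1176 units in aged samples, against 932, 814 and 566 units in young samples. Its change of 1.1 ± 0.29 (SE) did not pass the threshold (limma adjusted p = 0.093). Members of the Xlr and Rhox families are close copies of each other, so their probes may share transcripts.

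Autosomal germline genes that somatic tissues silence by promoter methylation gave 0 calls. All 25 listed have a probe but only 4 were bright enough to test, with a median change of -0.28. In limma 0 were called and 0 had an unadjusted p under 0.05, beside 3.56% and 17.1% of all tested genes. Zar1, above background on 1 aged and 3 young arrays, entered the test only through the young arrays. Its change and the median therefore depend on the floor of the aged arrays. Among the 82 genes of this list and the X-linked list that have a probe, 1 was well above background in at least 2 aged and in 0 young samples. The share of all genes meeting this condition is not given here, so nothing is read from the count. The 1 gene was Hormad1, a gene of meiotic chromosome axes, which was picked out after its values were seen. It gave 361, 29.0 and 302 units in aged samples, against 6.61, 7.17 and 17.7 units in young samples. Aged samples 1 and 3 were well above background, whereas aged sample 2 was not. It was not tested because 1 aged array fell short, and a second Hormad1 probe was above background in 1 of 3 aged and 0 of 3 young samples.

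Markers of other testis cells were examined because the members are germline genes. Of 16 markers of spermatogonia, spermatocytes and spermatids, 8, 3 and 2 were well above background on aged arrays 1, 2 and 3, against 10, 9 and 7 on young arrays 1, 2 and 3. The aged arrays also detected fewer of all probes, at 62.8%, 55.7% and 46.3%, against 72.9%, 69.0% and 55.3% on the young arrays. The 6 tested had a median change of -0.29, with 2 changes above 0 and 4 below 0. In limma 0 were called and 2, Zpbp and Ldhc, had an unadjusted p under 0.05, beside 3.56% and 17.1% of all tested genes. Zpbp had the smallest p, with a change of 0.38 ± 0.12 (SE; limma adjusted p = 0.162). It was above background on all 6 arrays, as was Zbtb16, which had a change of 0.51 ± 0.36 (SE; limma adjusted p = 0.531). Ldhc, a sperm lactate dehydrogenase gene, and Piwil1, a piRNA-binding protein gene, were each above background on 1 aged and 3 young arrays, as was Tekt1. These genes entered the test only through the young arrays, so their changes depend on the floor of the aged arrays. The change was -1.42 ± 0.53 for Ldhc (SE; limma adjusted p = 0.217) and -1.34 ± 0.58 for Piwil1 (SE; limma adjusted p = 0.294). Both were called lower without aged sample 1 (limma adjusted p of 0.0101 and 0.00253). That setting leaves only aged arrays on which neither gene was detected, so nothing is read from these calls. The summed signal of the whole list, relative to each array's 75th percentile, ran between 0.673 and 1.00 in aged and between 0.665 and 0.900 in young samples, so the ranges overlap. Zbtb16 gave the largest part of this sum on every array, for example 1540 of 2418 units on aged array 3. Undetected probes, whose floor was higher on aged arrays, also enter the sum. Dmrt1 is missing from the sum of aged array 3, where its spot was an outlier. Stra8, a meiotic entry gene, the spermatid genes Tnp2 and Acrv1, and Spag6 were above background on 0 of 6 arrays, and the protamine gene Prm1 on 1 aged and 0 young arrays.

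Of 12 Sertoli and Leydig cell markers with a probe, 5, 5 and 1 were above background on the aged arrays, against 8, 8 and 4 on the young arrays. Over all probes the share was likewise lower on the aged arrays, at 62.8%, 55.7% and 46.3%, against 72.9%, 69.0% and 55.3%. The 4 tested had a median change of -0.22. In limma 0 were called and 1 had an unadjusted p under 0.05, beside 3.56% and 17.1% of all tested genes. The 1 was Dhh, a Sertoli cell ligand, with 265, 178 and 53.0 units in aged samples, against 301, 348 and 173 units in young samples. Its change was -0.95 ± 0.36 (SE; limma adjusted p = 0.221). Dhh, Inha and Cyp17a1 were each above background on 2 aged and 3 young arrays. They entered the test only through the young arrays, so their changes and the median depend on the floor of the aged arrays. Hsd3b6, the 1 marker above background on all 6 arrays, had a change of 0.19 ± 0.11 (SE; limma adjusted p = 0.455). The summed signal of that list ran between 10.7 and 12.6 in aged and between 9.65 and 10.7 in young samples on the same scale, and the highest young value was just under the lowest aged one. Nearly all of the sum came from Hsd3b6, a steroid dehydrogenase gene and the 1 tested marker with a change above 0, with 42785, 43138 and 29679 units in aged samples, against 40313, 37862 and 24230 units in young samples. Gata4, Hsd17b3, Cyp11a1 and Lhcgr were above background on 0 of 6 arrays. The part of testis cell markers in the Magea values was not tested.

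Genes that act in DNA methylation or in the control of cancer-testis genes were tested as the next group, since methylation is the known control of MAGE-A genes. The list mixes roles. It includes genes that are not silencers, such as Tet2, Ets1 and Ctcfl, so its counts and median are not those of silencing genes alone. Of 29 tested, 0 rose and 3 fell in aged kidney in limma, with a median change of 0.01. Of the 29, 6 had an unadjusted p under 0.05, as did 17.1% of all tested genes, of which 1.5% were called lower. The 3 were Uhrf1, which guides the maintenance methylase to newly copied DNA, Hells, a chromatin remodeller needed for DNA methylation, and Ctcfl, the germline paralog of the insulator protein CTCF. Hells and Ctcfl entered the test through the young arrays, being detected on too few aged arrays, so Uhrf1 is the 1 of the 3 that was above background on all 6 arrays.

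Uhrf1 gave 1487, 921 and 748 units in aged samples, against 2194, 1681 and 1469 units in young samples. Every array was above background and the change was -0.80 ± 0.17 (SE; limma adjusted p = 0.0444). A second Uhrf1 probe was above background on 0 of 6 arrays and adds no information.

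Hells gave 129, 76.2 and 33.6 units in aged samples, against 202, 163 and 156 units in young samples. Only 1 of 3 aged arrays was above background, and the change was -1.32 ± 0.27 (SE; limma adjusted p = 0.0431). Ctcfl gave 23.6, 27.6 and 33.2 units in aged samples, against 110, 71.4 and 82.5 units in young samples. It was above background in 0 of 3 aged and 3 of 3 young samples, with a limma adjusted p of 0.036, and no fold is given because the young signals lay about at the lowest level that could be detected on the aged arrays.

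These 3 calls were close to the threshold. When p-values were adjusted over all 30821 probes in place of genes, the adjusted p was 0.0791 for Uhrf1, 0.0788 for Hells and 0.0638 for Ctcfl in limma. The Uhrf1 call was lost without aged sample 2 (adjusted p in limma of 0.123), aged sample 3 (0.114), and young samples 1, 2 and 3 (0.15, 0.0756 and 0.123). That of Hells was lost without aged samples 2 and 3 (adjusted p in limma of 0.148 and 0.0884) and without young samples 1, 2 and 3 (0.119, 0.0827 and 0.12). That of Ctcfl was lost without aged sample 2 (adjusted p in limma of 0.137) and without young samples 1 and 3 (0.106 and 0.098).

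The methylases themselves did not pass. Dnmt3a, which sets new methylation, had a change of -0.32 ± 0.11 (SE; limma adjusted p = 0.189), and its 3 aged signals of 4885, 4925 and 3057 units compare with 5900, 6228 and 3892 units in young samples. Dnmt3b, its paralog, had a change of -0.72 ± 0.28 (SE; limma adjusted p = 0.234). Dnmt1, the maintenance methylase, which was named for its role, had a change of -0.11 ± 0.14 (SE; limma adjusted p = 0.757). Mga, a subunit of a repressor complex that silences germline genes in mouse embryonic stem cells, had a change of 0.32 ± 0.10 (SE; limma adjusted p = 0.162).

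**Figure D4:**
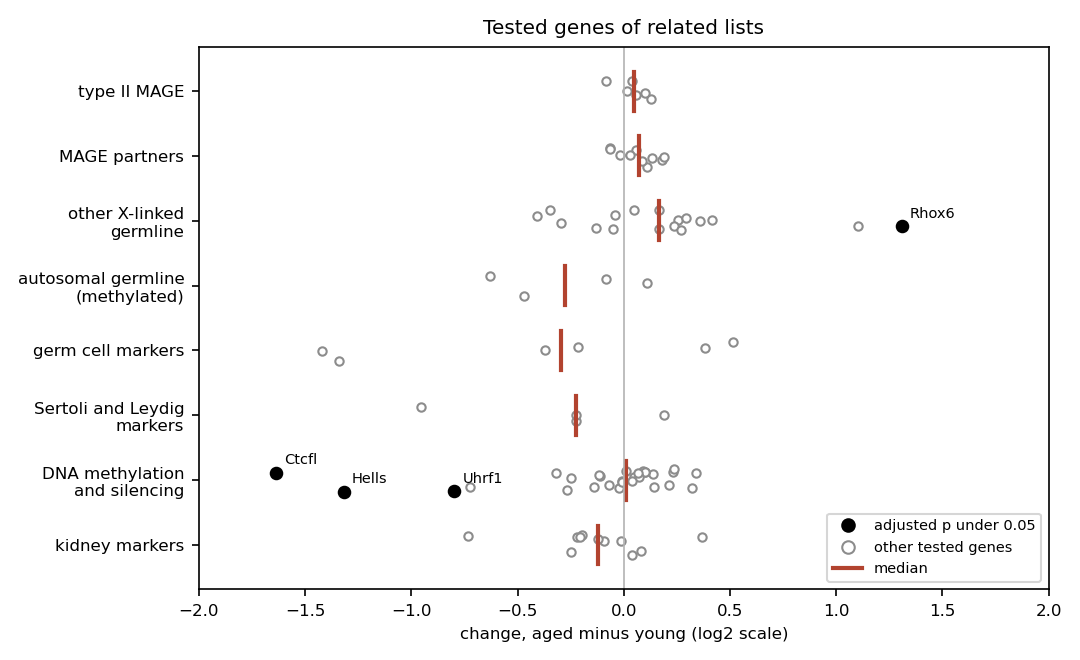
Change of each tested gene, aged minus young on the log2 scale, for 8 lists related to the Magea genes, with filled points past limma's adjusted p of 0.05, open points for the other tested genes and a red bar at the median of each list. Rhox6 is the only filled point above 0, and Uhrf1, Hells and Ctcfl are the filled points below 0.

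On either side of the members on the X chromosome, the 5 nearest annotated genes include only 2 with a probe, the claudin-like genes Cldn34b1 and Cldn34b2, and both were above background on 0 of 6 arrays. Of the other 467 tested genes on the X chromosome, 2.14% were higher and 1.5% lower in aged kidney, against 2.05% and 1.5% of the 14075 tested genes elsewhere. The share of X-linked genes called was thus close to that of the rest of the genome.

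The genes most like the members over the 6 arrays were ranked by Pearson correlation with the mean of the 5 measured members, among 299 tested genes whose signal ranged over at least 2 on the log2 scale. The first 8 were Il7r (r = 0.990), Olfr1317 (0.987), C6 (0.981), Prg2 (0.976), Acsbg1 (0.973), Creb3l3 (0.972), Jchain (0.968) and Mir124-2hg (0.965). Magea5 and Magea8, detected on 0 of 6 arrays, enter this mean, which was -4.64, -5.21 and -4.29 in aged samples 1, 2 and 3, and so it has aged sample 3 highest where Magea1 and Magea3 have aged sample 1. The family was chosen from the same contrast and the 6 arrays fall into 2 ages, so these correlations mostly restate that each gene differed by age, and no p is given. Olfr1317, Prg2 and Mir124-2hg were above background on 3 aged and 0 young arrays, so their young values depend on the floor of the young arrays. Il7r encodes the interleukin-7 receptor, C6 a complement component, Prg2 the major basic protein of eosinophils and Jchain the chain that joins IgA and IgM into polymers. The others, Olfr1317, Acsbg1, Creb3l3 and Mir124-2hg, have other roles, and whether the 8 share a theme was not tested. Jchain, for example, had normalised log2 values of 3.07, 2.94 and 2.92 in aged samples, against -1.51, -1.07 and -0.86 in young samples. Its aged samples were nearly level, whereas those of Magea1 and Magea3 spread widely.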

How the data were processed

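Per the labels' protocols, kidney RNA was isolated with Trizol, and Klenow enzyme put Cy3 into cDNA from random primers, so that label can sit on either strand. Per the file headers, the authors scanned arrays of design 028005 and quantified them with Agilent Feature Extraction 11.5.1.1, which gives background-subtracted, detrended intensity with no scaling between arrays. The authors' deposited values are on the log2 scale and equal the log2 processed signal minus a constant for each array, with column medians of -3.96, -4.17 and -4.23 for aged and -3.97, -4.05 and -4.23 for young samples. The scanner intensities were used for the main results.

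Control spots and spots with an outlier flag were left out, spots of a probe were averaged as log2 values, and each array's 75th percentile was subtracted. The percentile was 4092, 3780 and 2412 units on aged arrays and 3953, 3654 and 2591 units on young arrays, and 0 probes were saturated. Of 55681 probes, 26762 have 1 gene symbol, 0 have several and 28919 have none. Symbols came from RefSeq (GRCm38.p6), which is not the build the array was annotated on, so no probe coordinates are given. Probes entered the test if every array of an age, aged or young, was well above background. The brightest probe on average stood for its gene, which left 14545 of 20284 genes.

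The 2-sided test between ages was limma's lmFit with eBayes, run over all tested probes or genes with Benjamini-Hochberg adjustment and a threshold of 0.05. The number of arrays limits the precision. A bound of a fold was taken against the mean over the dim group's arrays of the higher of the lowest signal well above background and the probe's own signal. Levels of different probes were not compared. Replicate numbers come from the labels and were not used as pairs in the main results.

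The members and the 10 gene lists were chosen with earlier results of these data known. Every member probe is named, as are all called genes of a list and up to 3 others of it with the smallest p where they are discussed. Other genes are examples named for their roles, or were picked after their values were seen where the text says so. Software was R 4.3.3 with limma 3.58.1, jsonlite 2.0.0 and version 1.17.8 of data.table, and Python 3.11.15 with numpy 2.4.6, pandas 2.3.3, Biopython 1.88 and matplotlib 3.10.9.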

Additional observations from a re-analysis of the deposited data

How the results depend on the processing

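All 6 member probes kept their sign under the 11 alternatives run on each, which were quantile normalisation, median centring, normexp correction (offset 50), the authors' values, outlier spots kept and each array left out. Under normexp correction the change was 3.68 and 3.13 for the Magea1 probes, 2.56 for Magea3, 0.34 for Magea5 and -0.28 for Magea6. Under quantile normalisation it was 0.39 for Magea5 and 0.26 for Magea8. With 1 array left out the range was 5.05 to 5.82 and 5.19 to 5.86 for the Magea1 probes, 3.28 to 4.06 for Magea3, 0.86 to 1.76 for Magea5, -1.24 to -0.59 for Magea6 and 0.79 to 1.70 for Magea8.

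Of all probes, 666 were called (460 higher, 206 lower, 69.1% higher). With no filter on dim probes 109 were called (97.2% higher), with array weights 1094 (57.5% higher) and with normexp correction 568 (79.9% higher). With 1 array left out the count lay between 332, without young sample 1, and 2034, without aged sample 1, where 30.0% were higher. It was 340 without aged sample 2, 356 without young sample 2 and 394 without young sample 3. Of all genes, 518 were called (57.9% higher), 801 with median centring, 290 with normexp correction (67.9% higher) and 16 with no filter (93.8% higher). With 1 array left out the count lay between 164, without aged sample 2, and 937, without aged sample 1, where 38.3% were higher. It was 263 without aged sample 3, and 179, 254 and 290 without young samples 1, 2 and 3. The cause was not tested.

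Replicate numbers mark slide columns and were not treated as pairs, since the correlations of same-numbered deviations were 0.113, -0.130 and 0.198 over 30697 probes. With the replicate number as a block, 466 probes and 293 genes were called. Under the block Hells was no longer called (limma adjusted p = 0.0776). Over all alternatives Rhox6 lost its call in 5 of 17, Uhrf1 in 7 of 17, Hells in 9 of 16 and Ctcfl in 5 of 16. Of the 24 genes with the smallest p among those not called, up to 3 a list, 6 were called under some alternative, namely Rhox9, Dhh, Kap, Ldhc, Piwil1 and Tex101, and 4 turned sign. Rhox9 was called with median centring, with signal required on all 6 arrays and without aged sample 2 (limma adjusted p of 0.00103, 0.0465 and 0.0348). Signal over background limits the values of Magea5 and Magea8 on every array, of Magea6 on 2 aged arrays and of Magea1 and Magea3 on young arrays, and the aged arrays had the higher floor.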

Other observations

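Tex14, a gene of bridges between germ cells, was one of the autosomal germline genes and was picked out after its values were seen. It gave 119, 602 and 33.4 units in aged samples, against 37.2, 19.6 and 34.7 units in young samples. It was well above background in 2 of 3 aged and 1 of 3 young samples, so it was not tested. Aged sample 2, which had the lowest Magea1 and Magea3 signal relative to its array among aged samples, had the highest Tex14 signal, and Hormad1 was not above background in it. This rests on 1 array and on genes picked after their values were seen, so no relation to the Magea genes is read from it.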
